A study of Mus musculus with 20 samples.

Results

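Embryonic stem (ES) cells are the cultured counterpart of the pluripotent epiblast, and extra-embryonic endoderm (XEN) cells that of its sister lineage, the primitive endoderm. The series followed XEN cells on their way to induced pluripotent stem (XEN-iPS) cells and ES cells on their way to induced XEN (iXEN) cells by single-cell RNA sequencing, in 20 libraries that were 2 libraries of each of 10 conditions. The comparison described here is between the pluripotent ends of both routes, the 2 XEN-iPS libraries and the 2 libraries of ES cells at 0 h, and asks which transcripts still differed between the 2 pluripotent lines. Cells with at least 500 detected genes and fewer than 5 unique molecular identifiers (UMIs) of the collagen genes Col1a1, Col1a2 and Col3a1 together were kept, a limit that takes out feeder fibroblasts, and their UMIs were summed over each library. This left 4128 and 4882 XEN-iPS cells and 7624 and 9246 ES cells, 25880 of the 110725 cells that the same rule kept in the 20 libraries.

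The lines differed in more than their history. XEN-iPS cells were the 3F-4 XEN-iPS line, which carried Col1A1TetO-OKSmCh/TetO-OKSmCh at the collagen locus and, besides, R26M2rtTA/M2rtTA at Rosa26 and the reporter Oct4-GFPTg/Tg. For it, XEN cells derived from blastocysts that carried a doxycycline-inducible Oct4, Klf4 and Sox2 cassette were reprogrammed and then sorted for a surface antigen of pluripotent cells, SSEA-1, for a GFP reporter of the Oct4 locus and against the endoderm receptor PDGFRα, and they grew without doxycycline, in serum and LIF, on mouse embryonic fibroblast feeders. ES cells were the iGata4-Gata6-Venus ES line, which carried Col1A1TetO-Gata4/+ together with R26M2rtTA/+ and the reporter Gata6H2B-Venus/+, whose doxycycline-inducible Gata4 was not induced, in serum and LIF on gelatin without feeders. By the labels each group is 1 line, so that history, genotype, feeders and the clone cannot be told apart in this comparison. The study's methods describe the 2 libraries of a condition as technical duplicates, and a p-value therefore measures the spread between libraries and not between independently derived lines. Counts per gene do not separate transcripts of the cassette from those of the endogenous Oct4 (Pou5f1), Klf4 and Sox2 genes.

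Mouse pluripotency rests on a network of transcription factors around OCT4, SOX2 and NANOG, held in serum and LIF by LIF-STAT3 and BMP-SMAD signalling against the pull of FGF-ERK. Pluripotent lines that share this network can still differ in marks that cell division copies: imprinted genes are expressed from 1 parental allele, which is set by methylation marks laid down in the germline, germline genes and the reproductive gene clusters of the X chromosome are kept silent by promoter DNA methylation, and 1 X chromosome is silenced in female cells. ES cell cultures are also mixtures, with rare cells that express genes of the 2-cell embryo and cells that drift towards primitive endoderm.

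The kept cells held 71047749 and 52320828 UMIs in XEN-iPS libraries 1 and 2 and 109483200 and 138204184 in ES libraries 1 and 2, with median UMIs per cell of 16651.5, 10977.5, 13118.5 and 13154. The files carry project numbers, whose meaning is not given in the sources used here: both ES libraries share 1, and XEN-iPS 1 and 2 have 2 others, so that project number and line cannot be told apart. No barcode overlap stood out, with between 25 and 87 barcodes shared by any 2 of the 4 libraries. All 4 libraries carried the pluripotent markers: the summed level of the pluripotent marker genes was 10476, 9955, 8170 and 6566 raw CPM, which are counts per 1000000 UMIs of the cells in question.

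The XEN-iPS libraries stood apart from each other. Among genes of at least 20 CPM after scaling by TMM (given as CPM from here on), 685 genes, or 15.5%, differed by more than 2-fold between the XEN-iPS duplicates, against 27 genes, or 0.599%, between the ES duplicates. XEN-iPS 2 was rich in feeder cells, with 1943 cells, 28.5%, removed for collagen transcripts against 131 (3.08%) in XEN-iPS 1, 45 (0.587%) in ES 1 and 0 in ES 2, and fibroblast markers remained at 153 raw CPM in its kept cells against 26.9 in XEN-iPS 1 and 6.51 and 4.18 in ES. The fibroblast markers include Col1a1, Col1a2 and Col3a1, so the collagen limit set their level in any kept cells in part. Markers of differentiating cells were also highest in XEN-iPS 2. In the kept cells they stood at 642 raw CPM against 127 in XEN-iPS 1 and 129 and 79.4 in ES. In the cells that met the pluripotency rule described next they stood at 232 against 78.4, 52.1 and 67.4. The removed cells held them at 1295 raw CPM in XEN-iPS 1 and 2098 in XEN-iPS 2, and the part of feeder RNA in these levels was not tested. XEN-iPS 1 stood out in markers of 2-cell-like cells at 56.1 raw CPM against 1.59, 0.192 and 0.0217, and in endoderm markers at 455 against 229, 163 and 162. In XEN-iPS 1, 261 kept cells had a UMI of Gata4, Gata6, Sox17 or Pdgfra, and endoderm markers made up 5456 raw CPM in them. Gata4, Gata6, Sox17 and Pdgfra are themselves among the endoderm markers, so the choice of cells set that level in part. The duplicates also differed in Y-linked RNA, which is described with the sex chromosomes.

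Because of these differences the main values are given for each library, and the comparison was repeated in the cells of both lines that met a pluripotency rule: at least 3 UMIs over Nanog, Sox2, Esrrb and Tdgf1 and no UMI of Gata4, Gata6, Sox17 or Pdgfra, 8 genes that were then left out of the repeat. The rule held for 75.7% and 56.3% of the XEN-iPS cells (3126 and 2750) and for 90.02% and 91.3% of the ES cells (6863 and 8446). The kept cells that did not meet it had fewer UMIs, with medians of 3956 and 2094.5 in XEN-iPS and 8007 and 6487 in ES. In the cells that met the rule, endoderm markers fell to 143 and 89.4 raw CPM in XEN-iPS against 128 and 157 in ES, while fibroblast markers stayed at 12.6 and 65.3 against 4.66 and 3.95. The endoderm markers include Gata4, Gata6, Sox17 and Pdgfra, so the rule itself set part of their fall.

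**Figure D1:**
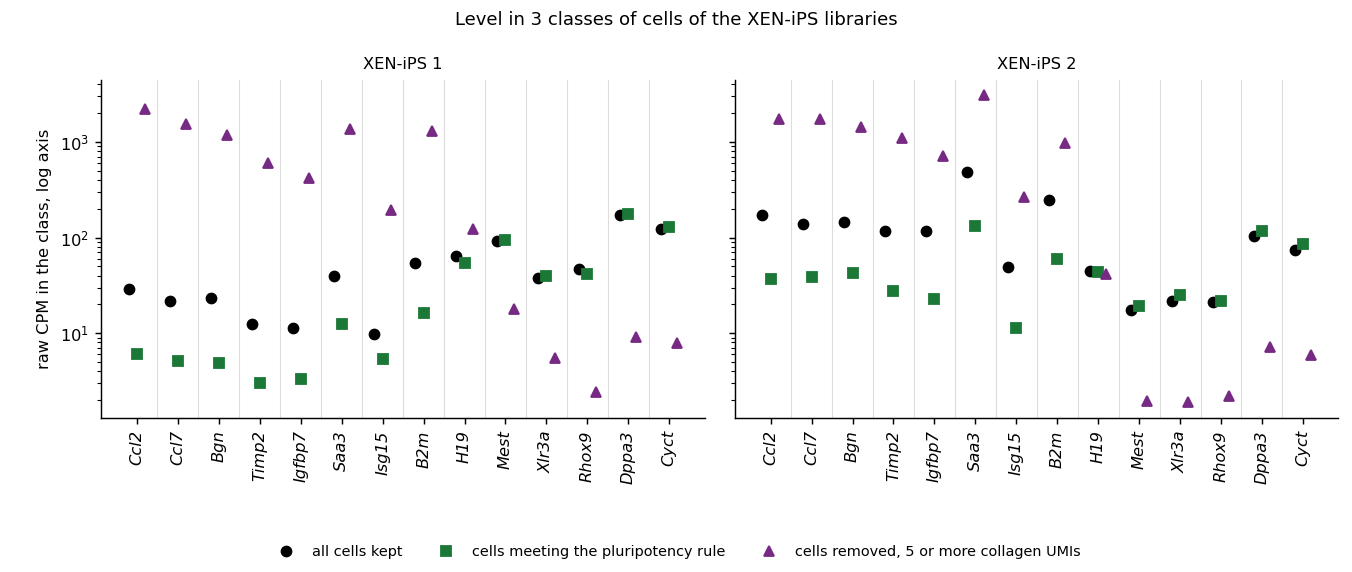
Raw CPM (log axis) of 14 genes in 3 classes of cells of XEN-iPS 1 (left) and XEN-iPS 2 (right): all cells kept, the kept cells that met the pluripotency rule, and the cells removed for 5 or more collagen UMIs. Ccl2, Ccl7, Bgn, Timp2, Igfbp7 and Saa3 were highest in the removed cells, whereas Mest, Xlr3a, Rhox9, Dppa3 and Cyct were higher in the cells that met the rule than in the removed cells.

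With edgeR's quasi-likelihood test over all 20 libraries, 2754 of 16903 genes tested (16.3%) were called, at an adjusted p under 0.05 and a change of at least 2-fold: 2073 (12.3%) were higher in XEN-iPS and 681 (4.03%) were lower. The median log2 fold change of all genes was 0.08. Most of the higher genes were rare transcripts: 1451 of the 2073 (70.0%) averaged under 5 CPM in XEN-iPS, and 259 of the 681 lower genes (38.0%) did so in ES. The count depended on the libraries: a fit of the 4 libraries alone, with 2 residual degrees of freedom, called 508 genes, and leaving out 1 library called 3199 (without XEN-iPS 1), 2642 (without XEN-iPS 2), 1203 (without ES 1) and 855 (without ES 2). Both the higher and the lower calls fell without an ES library, to 833 and 370 without ES 1 and to 550 and 305 without ES 2. A core of 649 genes, 450 higher and 199 lower, was called whichever of the 4 libraries was left out, and it held 40 of the 92 genes called among the 105 that the naming rules chose. A fit with 1 library left out keeps a single library in that group, so its spread comes from the other groups. In the cells that met the pluripotency rule 2327 of 16746 genes (13.9%) were called, 1564 (9.34%) higher and 763 (4.56%) lower. Counts of list members given below for these cells, or with 1 library left out, belong to those fits. They are not to be read against the 12.3% and 4.03% of the main fit. Since calls over all genes fell without an ES library, a smaller list count there is not particular to that list.

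**Figure D2:**
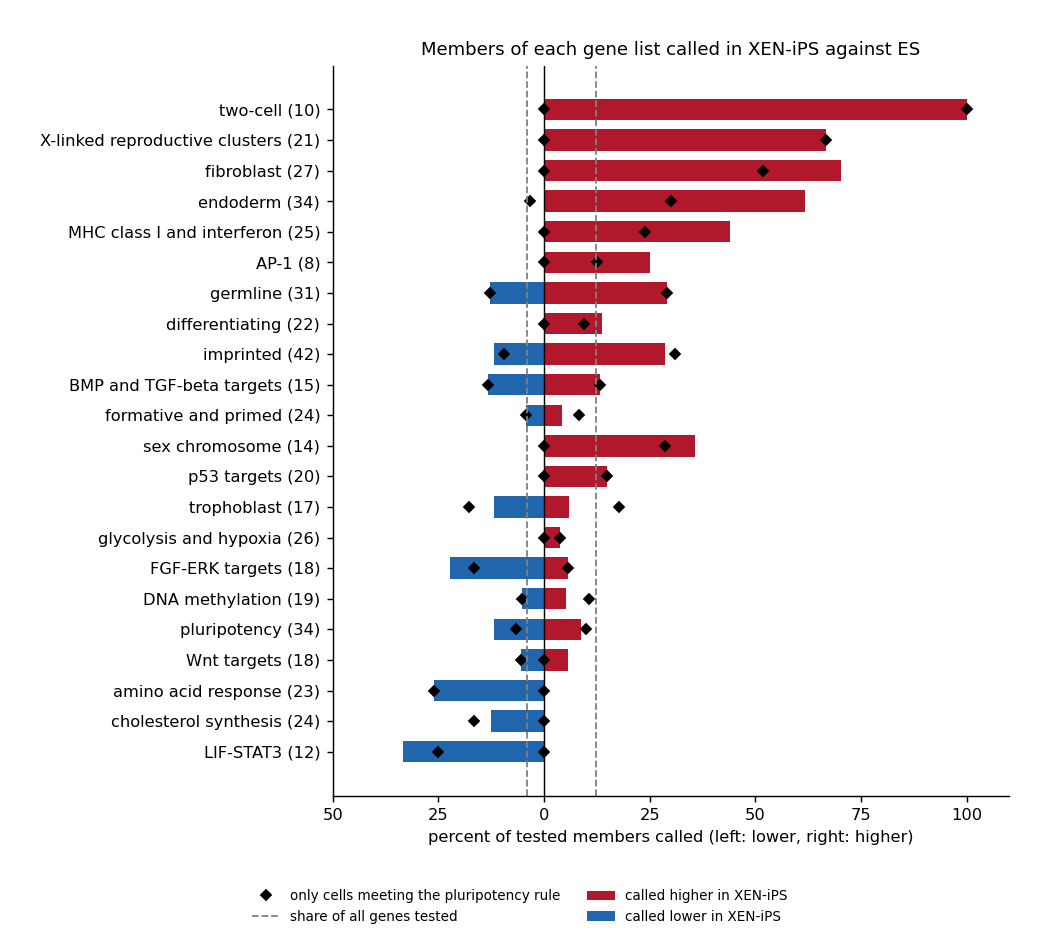
Percent of the tested members of each of 22 gene lists called higher (red, to the right) or lower (blue, to the left) in XEN-iPS against ES, with the number tested in parentheses and lists sorted by their median log2 fold change. Diamonds give the same shares in the cells that met the pluripotency rule and dashed lines the shares of all genes tested, 12.3% and 4.03%. The 2-cell, X-linked, fibroblast and endoderm lists reach farthest right, and LIF-STAT3, amino acid response and FGF-ERK are among those that reach farthest left.

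Among the core factors of the pluripotency network no difference between the lines passed the test. Pou5f1, which encodes OCT4, stood at 190 and 363 CPM in XEN-iPS and 535 and 447 in ES (log2 fold change −0.83 ± 0.66 (SE), adjusted p = 0.4). Sox2 stood at 191 and 243 CPM against 227 and 229 (−0.07 ± 0.72, adjusted p = 0.96), and Nanog at 141 and 118 against 81.9 and 73.4 (0.74 ± 0.72, adjusted p = 0.49). Neither Pou5f1, Sox2 nor Nanog passed the test, and the standard errors of 0.66 to 0.72 leave room for differences of more than 2-fold. Esrrb (40.7 and 104 CPM against 62.5 and 52.7) and Zfp42, also called Rex1 (857 and 1195 against 792 and 583), did not pass either. Utf1 (357 and 239 CPM against 673 and 617, adjusted p = 0.24) and Fgf4 (30.4 and 35.5 against 57.7 and 65.4, adjusted p = 0.35) had lower values in both XEN-iPS libraries than in both ES libraries, without passing. Klf4 (60.7 and 64.00 against 114 and 117) had an adjusted p of 0.028 but a log2 fold change of −0.89, under the 2-fold limit.

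Of 34 pluripotency genes tested, 3 were called higher and 4 lower, against 12.3% and 4.03% of all genes, with a median log2 fold change of −0.14, and 9 had both XEN-iPS libraries above both ES libraries and 15 both below. Over all genes the libraries of the lines did not overlap for 57.3%, with 30.5% above and 26.8% below. Dppa3 (Stella), a factor of the naive state and of germ cells that protects DNA methylation, stood at 167 and 90.1 CPM against 21.02 and 15.6, a log2 fold change of 2.81 ± 0.56 (adjusted p = 0.0035, and 0.061 without ES 2). The surface protein gene Pecam1 (20.4 and 25.3 against 7.33 and 4.39) and Fbxo15 (39.9 and 22.6 against 13.3 and 11.2) were higher too, and both calls were lost without ES 2 (adjusted p = 0.11 and 0.072), that of Fbxo15 also without XEN-iPS 1. The 4 lower members were Gbx2, Klf5, Tfcp2l1 and Lin28a. Gbx2, a homeobox gene induced by LIF-STAT3, fell from 81.3 and 97.2 CPM in ES to 17.5 and 8.49 in XEN-iPS (−2.78 ± 0.44, adjusted p = 8.0e-04) and was called whichever of the 4 libraries was left out. Klf5 (83.3 and 64.7 against 209 and 237, −1.59 ± 0.50) lost its call without each of the 4 libraries in turn (adjusted p of 0.064 to 0.14), and Tfcp2l1 (30.7 and 89.7 against 157 and 139) lost it without XEN-iPS 1 (0.13), ES 1 (0.12) or ES 2 (0.092). Lin28a, an RNA-binding inhibitor of let-7, was at 31.5 and 41.4 CPM against 70.5 and 82.8 (−1.07), a call lost without XEN-iPS 1, ES 1 or ES 2. In the cells that met the pluripotency rule the list held 3 higher and 2 lower calls among 30 members.

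Of 24 formative and primed genes, which mark the later epiblast, Zic2 was called higher (1.56 and 2.82 CPM against 0.0737 and 0.330) and Dnmt3b lower, against 12.3% and 4.03% of all genes, and the list's median was 0.25. The Zic2 call was lost without XEN-iPS 2, ES 1 or ES 2. Dnmt3b, which encodes a de novo DNA methyltransferase, stood at 61.9 and 25.6 CPM against 95.9 and 136 (−1.41 ± 0.37, adjusted p = 0.016). Without XEN-iPS 2 its log2 fold change was −0.91 (adjusted p = 0.10), and the call was also lost without ES 2. Among 19 genes of DNA methylation the other call was Uhrf2, higher at 54.3 and 27.8 against 19.7 and 16.4 CPM and lost without XEN-iPS 1, ES 1 or ES 2, so that 1 was higher and 1 lower, against 12.3% and 4.03% of all genes.

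**Figure D3:**
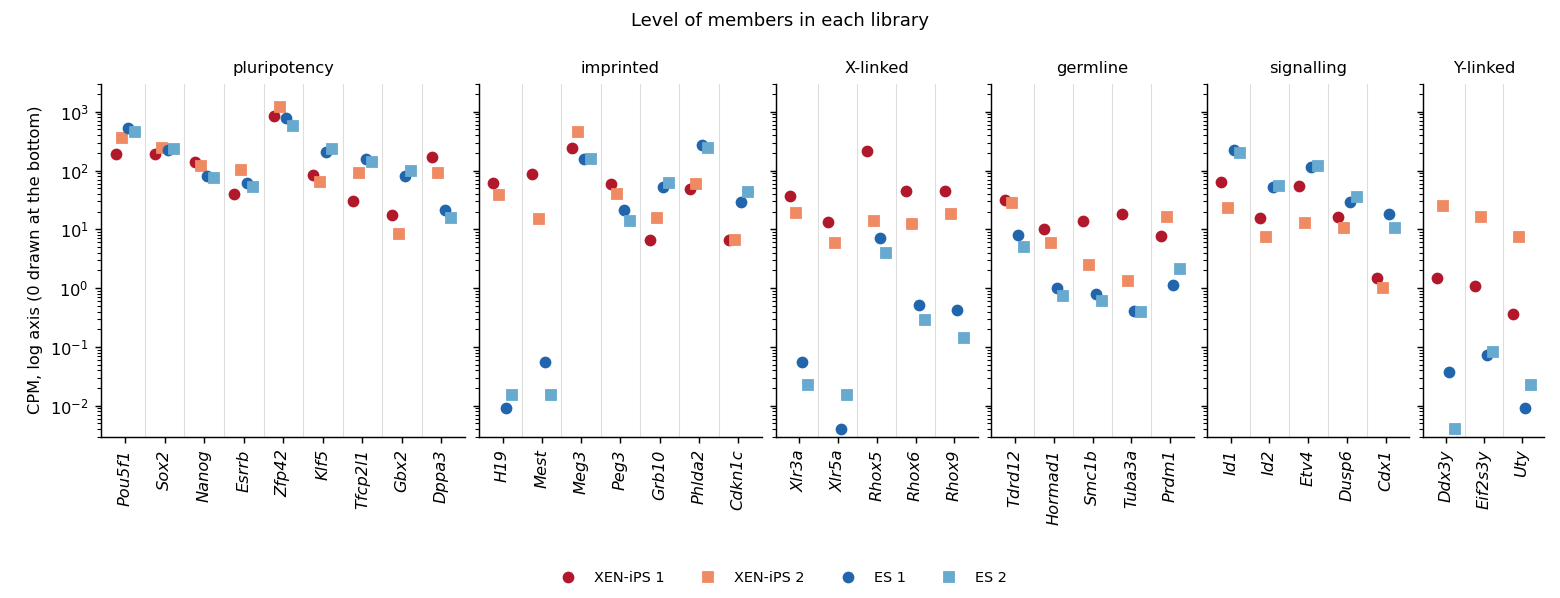
CPM (log axis, 0 drawn at the bottom) of members of the pluripotency, imprinted, X-linked, germline, signalling and Y-linked lists in XEN-iPS 1 and 2 (red) and ES 1 and 2 (blue). The 4 libraries lie together for Sox2, whereas H19, Mest and Xlr3a are near the bottom in ES and between 15.3 and 88.9 CPM in XEN-iPS, and Ddx3y is highest in XEN-iPS 2.

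Of 12 genes of the LIF-STAT3 pathway none was called higher and 4 were called lower, against 4.03% of all genes, with a median of −0.82. With 1 library left out 2 were lower (without ES 1 or ES 2) or 3 were lower (without XEN-iPS 1, with 1 higher, or XEN-iPS 2), and their summed level was 394 and 531 CPM in XEN-iPS against 765 and 746 in ES. Gbx2 and Tfcp2l1, given above, were 2 of the 4, and the others were the receptor gene Lifr (10.7 and 5.67 CPM against 16.8 and 17.2, −1.06, lost without XEN-iPS 2, ES 1 or ES 2) and the IκB family gene Bcl3, which stood at 12.1 and 13.7 CPM against 29.1 and 28.6 (−1.16 ± 0.26, adjusted p = 0.007).

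The inhibitors of differentiation Id1 and Id2, direct targets of BMP-SMAD signalling, were lower in both XEN-iPS libraries. Id1 stood at 63.5 and 23.5 CPM against 226 and 196 (−2.28 ± 0.47, adjusted p = 0.0041). Id2 stood at 15.4 and 7.44 against 53.2 and 55.4 (−2.25 ± 0.30, adjusted p = 2.7e-04). Both were called whichever library was left out. Of the 15 BMP and TGF-β targets tested, the inhibitory SMAD gene Smad6 (3.01 and 5.37 CPM against 1.300 and 1.05) was 1 of 2 called higher, a call lost without XEN-iPS 2, ES 1 or ES 2, and with Id1 and Id2 lower the list moved both ways, against 12.3% and 4.03% of all genes (median 0.47).

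Of 18 FGF-ERK targets 4 were lower and 1 was higher, against 4.03% and 12.3% of all genes, with a median of 0.12, and 1 was lower without XEN-iPS 2 (median −0.25), ES 1 or ES 2. The ETS factor Etv4 stood at 54.9 and 12.8 CPM against 113 and 118 (−1.77 ± 0.60, adjusted p = 0.047) and the ERK phosphatase gene Dusp6 at 15.99 and 10.6 against 28.7 and 36.04 (−1.28). Myc was lower as well (6.47 and 4.24 against 15.8 and 17.3, −1.63). Etv4, Dusp6 and Myc lost their calls without XEN-iPS 2, ES 1 or ES 2. The feedback inhibitor Spred1 was the other lower member, and the receptor gene Fgfr2 was higher, at 5.77 and 4.34 CPM against 0.811 and 0.982 (2.49 ± 0.36, adjusted p = 4.3e-04). Of 18 Wnt targets the homeobox gene Cdx1 was lower, at 1.52 and 1.001 against 18.5 and 10.6 CPM, a call lost without XEN-iPS 2, ES 1 or ES 2, and the Wnt antagonist gene Dkk1 was higher, a call carried by XEN-iPS 1 (1.37 against 0.100 CPM in XEN-iPS 2 and 0.147 and 0.0600 in ES), without which the log2 fold change was −0.02. The median of the Wnt list was −0.30, and its 1 higher and 1 lower call stand against 12.3% and 4.03% of all genes.

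Imprinted genes held some of the largest differences. Of 42 tested members, 12 were called higher and 5 lower (median 0.65), against 12.3% and 4.03% of all genes. Fewer members were called higher, and no more were called lower, with any 1 library left out. The list's median was then 0.50 (without XEN-iPS 1), 0.47 (without XEN-iPS 2), 0.65 (without ES 1) or 0.59 (without ES 2). In all, 24 had both XEN-iPS libraries above both ES libraries and 9 both below, against 30.5% and 26.8% of all genes. In the cells that met the pluripotency rule 13 were higher and 4 lower. H19, a maternally expressed long non-coding RNA (chr7:142575529-142578143, mm10), stood at 62.1 and 38.9 CPM in XEN-iPS and was nearly absent from ES, with 6869 UMIs in the XEN-iPS libraries and 3 in the ES libraries. Per UMI sequenced the ratio was 4162 (exact 95% interval 1424 to 20188, counting error only). H19 was also found in the removed fibroblasts (124 and 41.7 raw CPM), and the kept cells that met the pluripotency rule had 54.4 and 43.7, and the part of feeder RNA in its level was not tested. The paternally expressed hydrolase gene Mest (chr6:30723547-30748465) stood at 88.9 and 15.3 CPM against 0.0553 and 0.0150 (10.54 ± 1.59, adjusted p = 5.7e-04), and at 17.7 and 1.94 raw CPM in the removed fibroblasts against 94.2 and 19.3 in the cells that met the rule. Both H19 and Mest were on in each XEN-iPS library and all but off in each ES library.

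The Mest promoter is shown because this gene was close to all or none between the lines. RefSeq lists 3 start sites for it, and the 300 bases printed, from 250 before to 50 after the start with the most CG dinucleotides, are chr6:30737800-30738099 on the plus strand of GRCm38.p6, with their 17 CG dinucleotides in capitals.
Mest: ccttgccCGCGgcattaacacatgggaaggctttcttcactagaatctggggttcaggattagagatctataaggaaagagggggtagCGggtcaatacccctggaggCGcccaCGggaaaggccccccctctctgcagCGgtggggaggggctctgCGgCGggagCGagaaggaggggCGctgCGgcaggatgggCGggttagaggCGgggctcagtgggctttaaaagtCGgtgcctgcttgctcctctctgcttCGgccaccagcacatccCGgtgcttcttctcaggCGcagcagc

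Imprinted genes that were lower included growth inhibitors of the placenta and embryo. Phlda2 fell from 269 and 244 CPM in ES to 49.1 and 59.4 (−2.24 ± 0.43, adjusted p = 0.003), and its neighbour on chromosome 7, the cyclin-dependent kinase inhibitor gene Cdkn1c, from 29.7 and 42.97 to 6.52 and 6.49 (−2.48 ± 0.59, adjusted p = 0.0095, and 0.072 without ES 2). Slc22a18, of the same cluster, was lower as well (−1.95). The adaptor gene Grb10 stood at 6.59 and 15.6 CPM against 52.3 and 60.5 (−2.35 ± 0.60, adjusted p = 0.013). Its call was lost without XEN-iPS 1 (0.075) or ES 2 (0.072), and in the cells that met the pluripotency rule the difference was larger, at 4.07 and 5.84 CPM against 49.8 and 58.99. The other lower member of the list was Zfp57, a regulator of imprinting whose product keeps methylation at imprinted control regions (50.1 and 54.3 against 116 and 96.8, −1.03). Its call was lost without XEN-iPS 1 or ES 1 and in the cells that met the pluripotency rule.

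Several paternally expressed genes were higher by smaller factors. Peg3 stood at 58.8 and 40.2 CPM against 21.4 and 13.9 (1.49, adjusted p = 0.002) and Snrpn at 504 and 361 against 220 and 208 (1.01, adjusted p = 0.023). Ndn, Plagl1, Zrsr1, Mcts2, Nap1l5 and Sfmbt2 were called higher too. Of the imprinted genes of this group Peg3 and Zrsr1 were called whichever library was left out, and the others lost their calls without at least ES 2. In the Dlk1-Dio3 cluster, which has been tied to the developmental potential of iPS lines, the maternally expressed Mirg was higher (17.4 and 27.5 CPM against 6.39 and 7.15, 1.73, lost without XEN-iPS 2, ES 1 or ES 2), while Meg3, at 245 and 450 against 159 and 157, did not pass (adjusted p = 0.089). The summed level of the imprinted list was 1923 and 1884 CPM against 1607 and 1595.

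The reproductive gene clusters of the X chromosome were expressed in XEN-iPS. Of 27 genes in the list 21 were tested, and 14 were called higher and none lower, against 12.3% of all genes called higher. The other 6 had no entry or did not pass the filter on low values, which a member can pass through the libraries in which it is high. The 14, which are Xlr, Rhox and Magea genes, were called higher again in the cells that met the pluripotency rule, and 12 members were called higher without XEN-iPS 1 (with 1 lower), ES 1 or ES 2 and 16 without XEN-iPS 2. Xlr3a, of the X-linked lymphocyte-regulated family (chrX:73086293-73097095), stood at 36.8 and 19 CPM against 0.0553 and 0.0225 (9.48 ± 0.88, adjusted p = 2.2e-05). Xlr5a was counted 1320 times in XEN-iPS and 2 times in ES, a ratio per UMI of 1200 (exact 95% interval 331 to 9917, counting error only). Genes of the reproductive homeobox cluster followed. Rhox6 stood at 44.6 and 12.2 CPM against 0.516 and 0.285, and Rhox9 at 45.8 and 18.6 against 0.433 and 0.142.

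Rhox5, the founding gene of the cluster, differed widely between the XEN-iPS duplicates, at 219 and 13.9 CPM against 7.01 and 3.93, and its call (4.42 ± 0.99, adjusted p = 0.0067) was lost without XEN-iPS 1 (1.33, adjusted p = 0.18), ES 1 or ES 2. Trap1a, a testis antigen gene at 171 and 40.4 CPM against 108 and 124, did not pass. The summed list stood at 613 CPM in XEN-iPS 1 and 139 in XEN-iPS 2 against 125 and 136 in ES, of which Trap1a made most in ES. The Xlr and Rhox genes have near-identical copies, and how the counting divided reads between copies is uncertain.

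The promoters of Xlr3a (chrX:73097046-73097345, minus strand) and Rhox5 (chrX:37754358-37754657, plus strand, at the start site RefSeq lists) are shown with their CG dinucleotides, 5 in each, in capitals (GRCm38.p6), as examples of the Xlr and Rhox families of this list, although the Rhox5 call was lost without XEN-iPS 1, ES 1 or ES 2. The median promoter of the 25 X-linked genes matched in the table held 7 CG dinucleotides, as did the median of all promoters.
Xlr3a: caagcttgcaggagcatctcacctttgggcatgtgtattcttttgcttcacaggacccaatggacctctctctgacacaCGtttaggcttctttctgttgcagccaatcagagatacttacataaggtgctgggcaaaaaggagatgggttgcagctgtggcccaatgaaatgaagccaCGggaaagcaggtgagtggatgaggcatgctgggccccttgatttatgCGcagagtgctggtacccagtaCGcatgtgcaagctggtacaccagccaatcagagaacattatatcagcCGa
Rhox5: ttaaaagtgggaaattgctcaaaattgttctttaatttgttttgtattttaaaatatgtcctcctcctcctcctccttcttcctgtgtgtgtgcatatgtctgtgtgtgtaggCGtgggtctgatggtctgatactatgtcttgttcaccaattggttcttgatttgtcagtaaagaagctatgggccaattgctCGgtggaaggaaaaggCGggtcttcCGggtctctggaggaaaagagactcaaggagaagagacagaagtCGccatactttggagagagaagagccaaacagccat

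Of 31 germline genes 9 were called higher and 4 lower, against 12.3% and 4.03% of all genes, with a median of 0.82. Without XEN-iPS 1 the median was −0.40, with 7 higher and 5 lower, and the counts were 11 and 2 without XEN-iPS 2, 6 and 2 without ES 1 and 6 and 1 without ES 2. As many were called in the cells that met the pluripotency rule, 9 higher and 4 lower. Tdrd12, which takes part in piRNA production, stood at 31.9 and 27.9 CPM against 8.01 and 4.96 (2.20). The meiotic genes Hormad1 (10.03 and 5.79 against 1.01 and 0.727, 3.18, adjusted p = 0.0022) and Smc1b (14.1 and 2.503 against 0.783 and 0.615, 3.57) were higher, as was the testis tubulin gene Tuba3a (18.4 and 1.301 against 0.406 and 0.397, 4.61 ± 0.85, adjusted p = 0.0021). For Smc1b and Tuba3a the value was more than 5 times higher in XEN-iPS 1 than in XEN-iPS 2. Prdm1, a specifier of primordial germ cells, stood at 7.62 and 16.1 CPM against 1.14 and 2.13, and Kit, Majin, Asz1 and Tuba3b were the other higher members. The calls of Smc1b (without ES 2), Majin, Asz1 and Tuba3b were lost with 1 library or another left out.

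The lower germline genes included Ddx4 (Vasa), at 1.63 and 0.350 CPM against 4.54 and 5.73 (−2.36, adjusted p of 0.085 without ES 2), and Dnd1, at 2.49 and 1.94 against 9.25 and 7.46 (−1.92). Piwil2 and Zcwpw1 were the others, both lost without XEN-iPS 2, ES 1 or ES 2. Dazl stood at 13.6 and 0.968 against 1.24 and 1.38 CPM and did not pass. The germline list thus moved in both directions, with Dnd1 and Tuba3a called whichever of the 4 libraries was left out.

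The promoters of 3 of the higher germline genes are shown because they carry a motif that is known from promoters of genes silenced in somatic cells, GCGGGAA, an E2F6-type site. Capitals mark GCGGGAA or the E-box CACGTG on either strand in the promoters of Hormad1 (chr3:95559427-95559726, plus strand), Smc1b (chr15:85131908-85132207, minus strand) and Tuba3a (chr6:125286032-125286331, minus strand) on GRCm38.p6.
Hormad1: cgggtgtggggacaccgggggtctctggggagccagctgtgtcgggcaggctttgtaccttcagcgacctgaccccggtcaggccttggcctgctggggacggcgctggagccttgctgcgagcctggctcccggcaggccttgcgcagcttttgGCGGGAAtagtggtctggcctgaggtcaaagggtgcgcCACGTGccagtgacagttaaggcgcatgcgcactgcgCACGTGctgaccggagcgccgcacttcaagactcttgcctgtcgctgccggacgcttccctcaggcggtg
Smc1b: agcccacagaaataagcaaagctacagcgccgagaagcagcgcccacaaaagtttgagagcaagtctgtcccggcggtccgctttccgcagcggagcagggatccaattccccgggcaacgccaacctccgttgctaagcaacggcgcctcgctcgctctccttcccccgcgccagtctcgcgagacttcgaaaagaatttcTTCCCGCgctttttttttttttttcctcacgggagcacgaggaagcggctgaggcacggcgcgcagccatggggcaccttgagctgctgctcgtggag
Tuba3a: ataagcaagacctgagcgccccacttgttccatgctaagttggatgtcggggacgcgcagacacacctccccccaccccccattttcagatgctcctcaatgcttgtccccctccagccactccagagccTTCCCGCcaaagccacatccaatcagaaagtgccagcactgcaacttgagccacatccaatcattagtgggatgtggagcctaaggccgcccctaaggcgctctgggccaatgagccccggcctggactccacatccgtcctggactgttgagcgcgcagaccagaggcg

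GCGGGAA was found in 4.6% of the 32851 RefSeq mouse promoters of this length and CACGTG in 7.15%. Of the 34 promoters of the 27 germline genes matched, 10 (29.4%) held GCGGGAA and 15 (44.1%) CACGTG, but they also held a median of 20.5 CG dinucleotides against 7 over all promoters, and both motifs contain CG, so that these shares are not like for like. The 8 matched germline genes called higher had 11 promoters, of which 5 (45.5%), belonging to the 4 genes Hormad1, Smc1b, Tuba3a and Tuba3b, held GCGGGAA and 2 held CACGTG. None of the X-linked promoters held GCGGGAA and 1 (4%) held CACGTG. A match is a description of the letters and not of a bound site.

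A further group of genes, some of them members of the lists above, was chosen after its values were seen: 992 genes were called the same way in all kept cells, in the cells that met the pluripotency rule, and in those cells without XEN-iPS 1 and without XEN-iPS 2, and 80 of them averaged at least 50 CPM in the higher group (35 higher, 45 lower). The testis cytochrome c gene Cyct stood at 118 and 64.5 CPM against 3.79 and 2.63 (4.83 ± 0.49, adjusted p = 3.8e-05), and the immunoglobulin superfamily gene Igsf23 at 51.6 and 44.98 against 1.63 and 1.605 (4.90 ± 0.42, adjusted p = 1.2e-05). Adprh, an ADP-ribosylarginine hydrolase gene, stood at 165 and 153 against 35.9 and 35.4 (2.16 ± 0.18). Tex19.1, a retrotransposon defence gene (97.2 and 35.1 against 9.14 and 6.77), Morc1 (134 and 80.97 against 31.5 and 22.5) and Usp26 on the X chromosome (26.7 and 69.98 against 3.13 and 1.79) are all expressed in germ cells. The ES cell non-coding RNA Lncenc1 stood at 68.7 and 68.7 against 7.71 and 5.29. The calls of Morc1 and Lncenc1 were lost without ES 2.

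Among the lower genes of that group, the homeobox gene Nkx6-2 stood at 6.25 and 1.18 CPM in XEN-iPS against 61.3 and 63.7 in ES (−4.06 ± 0.68, adjusted p = 0.0012), and the adhesion gene Bcam at 18.3 and 6.36 against 58.9 and 84.3 (−2.54). Kdm2b, which recruits a Polycomb complex to CpG islands, stood at 21.8 and 23.2 against 71.4 and 84.7 (−1.79). Mid1, which spans the pseudoautosomal boundary of the mouse X chromosome, stood at 0.821 and 12.3 against 57.6 and 86.1 and lost its call without ES 2 (adjusted p = 0.075). Rpl29, a ribosomal protein gene, had the highest level, with 40.04 and 280 CPM against 2255 and 2281 (−3.83 ± 0.89). Rpl29, RP24-286J21.7 (3.802 and 2.59 against 81.2 and 102 CPM), Gm10036, AY036118 and ERDR1 are gene copies, pseudogenes or repeat transcripts, whose reads may be split with a near-identical copy, and their values are uncertain for that reason.

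Cdkn1a, which encodes p21 and is a p53 target, stood at 194 and 320 CPM against 52.2 and 36.8 (2.53 ± 0.32, adjusted p = 2.0e-04) and, in the cells that met the pluripotency rule, at 144 and 188 against 39.2 and 33.4. Cdkn2a, the Ink4a/Arf locus, stood at 74.2 and 91.8 against 10.8 and 4.36 (3.45 ± 0.38, adjusted p = 6.1e-05). In the cells that met the pluripotency rule Cdkn2a stood at 60.4 and 42.4 CPM against 5.27 and 3.75. Of 20 p53 targets 3 were higher, Cdkn1a, Fas and Plk2, and none lower, against 12.3% of all genes higher, with a median of 0.19, and 1, Cdkn1a, was higher without XEN-iPS 2 or ES 2.

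Genes of amino acid and cholesterol metabolism were lower where they were called. Of 23 genes of the amino acid response 6 were lower and none higher (median −0.46), against 4.03% of all genes lower. The lower calls numbered 3 without XEN-iPS 1, where 2 members were higher, 5 without XEN-iPS 2 and 1 without ES 1 or ES 2. Cth, which makes cysteine from cystathionine, stood at 7.74 and 3.704 CPM against 29.4 and 27.3 (−2.30 ± 0.50, adjusted p = 0.0057), and Pck2, Trib3, Phgdh, Psph and Slc7a1 were the others. The 24 genes of cholesterol synthesis held 3 lower calls, Idi1, Cyp51 and Acat2, against 4.03% of all genes, and a median of −0.74. In both XEN-iPS libraries 14 members lay below both ES libraries and none above, against 26.8% and 30.5% of all genes. Without XEN-iPS 1 there were 7 lower calls (median −1.04), none was made without XEN-iPS 2, without ES 1 or without ES 2, and 1 was made with another scaling of the libraries. Of 26 genes of glycolysis and hypoxia (median 0.17) the lactate dehydrogenase gene Ldhb alone was called, at 171 and 344 CPM against 62.6 and 66.7 (1.99 ± 0.39, adjusted p = 0.0031), against 12.3% of all genes higher.

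Among genes of fibroblasts and of the interferon response many were called higher in XEN-iPS, and the summed levels were highest in XEN-iPS 2. The fibroblast list summed to 1235 CPM in XEN-iPS 1 and 4214 in XEN-iPS 2 against 1482 and 748 in ES, so that XEN-iPS 1 lay between the ES libraries. Of 27 fibroblast genes 19 were called higher and none lower (median 4.49), against 12.3% of all genes higher. In the cells that met the pluripotency rule 14 were called higher, against 9.34% of all genes in that fit. Fewer were called without XEN-iPS 2, ES 1 or ES 2, but not without XEN-iPS 1. The chemokine gene Ccl7 stood at 21.1 and 120 CPM in XEN-iPS, with 8711 UMIs against 3 in ES (ratio per UMI 5278, exact 95% interval 1806 to 25600), and Ccl2 at 27.96 and 148 against 0.553 and 0.112 CPM. In the removed fibroblasts Ccl2 reached 2208 and 1739 raw CPM against 6.05 and 36.7 in the cells that met the rule. The matrix gene Bgn (22.5 and 126 against 1.29 and 0.112 CPM) and the acute-phase gene Saa3 (38.7 and 419 against 4.44 and 3.16) had the same order of libraries. The ES cells had no feeders, and the part of feeder RNA in these calls was not tested.

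Of 25 genes of MHC class I and the interferon response 11 were higher and none lower (median 1.67), against 12.3% of all genes higher, and 6 were higher in the cells that met the pluripotency rule (median 0.93). The higher calls numbered 15 without XEN-iPS 1, 7 without XEN-iPS 2, 6 without ES 1 and 4 without ES 2. Isg15, an interferon-induced ubiquitin-like modifier, stood at 9.47 and 43.2 CPM against 0.166 and 0.255, and at 195 and 264 raw CPM in the removed fibroblasts against 5.32 and 11.2 in the cells that met the rule. B2m, the MHC class I light chain, stood at 53.2 and 215 CPM against 17.2 and 15.7, whereas the restriction factor gene Bst2 was even between the XEN-iPS duplicates (128 and 128 against 36.2 and 34.6) and lost its call without ES 1 or ES 2. Neither B2m nor Bst2 was called in the cells that met the pluripotency rule. Among 8 AP-1 genes Jund and Fosl2 were higher, against 12.3% of all genes, with a list median of 1.31. Neither was called without XEN-iPS 2 or without ES 1, and in the cells that met the pluripotency rule Jund alone was called and the median was 0.60.

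Endoderm genes were higher in XEN-iPS 1. Of 34 tested, 21 were called higher (median 2.46), against 12.3% of all genes. Without XEN-iPS 1, 11 were higher and 3 lower, and 28 were higher without XEN-iPS 2, 16 without ES 1 and 10 without ES 2. Of the 30 that remained in the cells that met the pluripotency rule 9 were higher (median 1.03) and 1 was lower. Gata6 stood at 9.27 CPM in XEN-iPS 1 against 0.417 in XEN-iPS 2 and 0.166 and 0.127 in ES, Sox17 at 5.73 against 0.350, 0.0277 and 0.180, and Gata4 at 3.73 against 0.451, 0.387 and 0.157. XEN-iPS 2 was no higher than 0.451 CPM for each of these factors, and without XEN-iPS 1 none of Gata4, Gata6 and Sox17 passed (adjusted p = 0.39, 0.13 and 0.33). The list summed to 1042 CPM in XEN-iPS 1, 602 in XEN-iPS 2 and 836 and 806 in ES. Pdgfra, a receptor gene of endoderm that fibroblasts also express, was higher in both libraries (2.04 and 0.984 against 0.0553 and 0.0375). Of the 25 genes of the 2-cell embryo 10 passed the filter on low values, through XEN-iPS 1, and were called higher, so that their count says little beyond that library, where the list summed to 195 CPM against 8.6 in XEN-iPS 2 and 0.7 and 0.2 in ES. Cells with at least 2 Zscan4 UMIs numbered 148 (3.59%) in XEN-iPS 1, 2 in XEN-iPS 2, 1 in ES 1 and 0 in ES 2, and without such cells the count of calls over all genes was 2699. Genes of this list have many copies, between which reads cannot be divided with certainty.

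Of 17 trophoblast genes 1 was higher and 2 lower, against 12.3% and 4.03% of all genes (median 0.17, and −0.73 with 5 lower without XEN-iPS 1), and 3 were higher and 3 lower in the cells that met the pluripotency rule. Tfap2c, a factor of trophoblast and also of germ cells and naive pluripotency, stood at 30.1 and 54.5 CPM against 4.57 and 3.09 (3.46 ± 0.53, adjusted p = 6.2e-04), and Krt8 and Phlda2 were lower, the call of Krt8 being lost without XEN-iPS 2 or ES 1. Of 22 genes of differentiating cells the higher ones were Hoxb2, Hoxb4 and Hand2, each at no more than 2.05 CPM in either XEN-iPS library (list median 0.75), against 12.3% of all genes. Hoxb4 alone of these was called without XEN-iPS 2, ES 1 or ES 2 and in the cells that met the pluripotency rule.

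Transcripts of the sex chromosomes separated the XEN-iPS duplicates from each other. The Y-linked helicase gene Ddx3y stood at 1.505 CPM in XEN-iPS 1, 24.5 in XEN-iPS 2 and 0.0369 and 0 in ES, and Eif2s3y at 1.08, 16.4, 0.0737 and 0.0825. In the cells that met the pluripotency rule Y-linked genes summed to 0.583 raw CPM in XEN-iPS 1 and 55.7 in XEN-iPS 2, and 0.928% and 56.3% of these cells had a Y-linked UMI. In the removed fibroblasts 69.5% and 40.4% had one. Cells that met the rule and had Y-linked RNA were thus common in XEN-iPS 2 and rare in XEN-iPS 1, although both libraries carry the label of the same line, and whether they are duplicates of the same cells was not tested. In XEN cells, from which that line came, Ddx3y stood at 23.8 and 17.4 CPM. Xist, the RNA that coats the inactive X chromosome, stood at 0.807 and 2.45 CPM against 0.212 and 0.150 (3.16 ± 0.65, adjusted p = 0.0041), low in all 4 libraries, and did not pass in the cells that met the rule (adjusted p = 0.051) or without ES 2. Of 14 sex chromosome genes tested 5 were higher in XEN-iPS (2 without ES 2) and none lower (median 0.22), against 12.3% of all genes. Among the cells that met the rule 4 were higher, and none was without XEN-iPS 2 (median −0.0086).

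The share of cells with a UMI was compared after every cell was thinned to 2000 UMIs, with 284, 1025, 183 and 159 shallower cells left out, since depth alone changes such shares. Mest was found in 14.6% and 2.96% of XEN-iPS cells (exact 95% intervals 13.5 to 15.8% and 2.44 to 3.54%) and in none of 7441 and 9087 ES cells, which limits the share of cells with a Mest UMI at that depth, not of cells that express Mest, to 0.0403% and 0.0330%. Before thinning, 63.6% and 17.5% of XEN-iPS cells and 0.0538% and 0.0220% of ES cells had a Mest UMI. H19 was found in 5.83% and 4.77% of thinned cells against 0.0134% and 0.0110%, and Dppa3 in 23.5% and 13.2% against 3.696% and 2.95%. Both duplicates were above the ES libraries for each of these. Phlda2 went the other way, with 7.41% and 9.41% of XEN-iPS cells against 38.9% and 33.1% of ES cells, as did Id1 (11.4% and 5.13% against 31.5% and 25.9%) and Gbx2 (3.43% and 1.74% against 13.8% and 16.6%). For Pou5f1 the shares were 28.8% and 43.9% against 62.7% and 56.01%, and for Zfp42 70.5% and 68.99% against 73.6% and 63.05%. Within the cells that met the pluripotency rule the Pou5f1 shares were 31.8% and 58.1% against 64.7% and 56.8%, with XEN-iPS 2 between the ES libraries, and the Zfp42 shares were 78.1% and 90.97% against 75.8% and 63.9%, above both ES libraries. Gata6, a gene that pluripotent cells should lack, was found in 2.003%, 0.0778%, 0.0672% and 0.0330%. In XEN-iPS 1 this includes the cells with endoderm transcripts described above. Ccl2 and Bgn, which were highest in the removed cells, were found more widely. Ccl2 was in 3.096% and 19.03% and Bgn in 3.41% and 21.5% of XEN-iPS cells. In XEN-iPS 2 these shares were above those of H19 and Mest. The part of feeder RNA in the Ccl2 and Bgn shares was not tested. They were lower in the cells that met the pluripotency rule, at 0.803% and 6.47% for Ccl2 and 0.771% and 7.498% for Bgn.

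**Figure D4:**
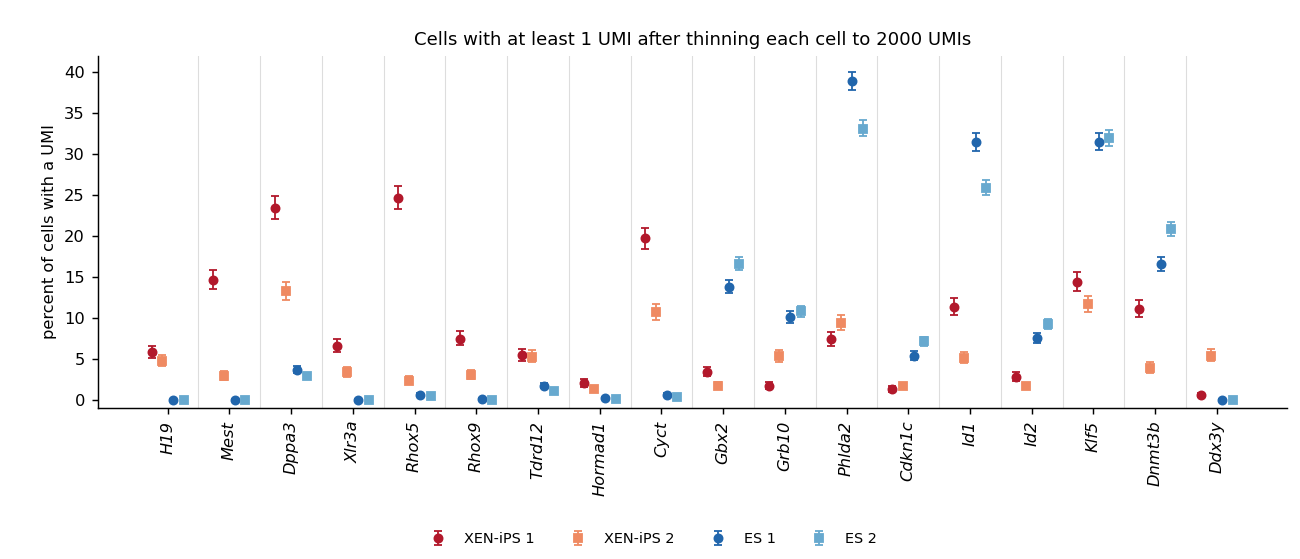
Percent of cells with a UMI (linear axis) of 18 genes after thinning to 2000 UMIs per cell, in XEN-iPS 1 and 2 (red) and ES 1 and 2 (blue), with exact 95% intervals that cover counting error only. The XEN-iPS shares lie above the ES shares for H19, Mest, Dppa3, Xlr3a and Cyct and below them for Gbx2, Grb10, Phlda2 and Id1.

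The same pair of lines was also sequenced in the endoderm state, as XEN cells (the line from which the XEN-iPS cells came) and iXEN cells (made from the ES line). By the study's methods, the XEN cells grew on fibroblast feeders in the reprogramming medium, with ascorbic acid and an inhibitor of GSK3β, without doxycycline. The iXEN cells were made by doxycycline-induced Gata4 on gelatin and then kept without doxycycline. XEN against iXEN shares no library with XEN-iPS against ES. The XEN files carry the project number of the ES libraries and the iXEN files that of XEN-iPS 1. Feeders, medium, induced Gata4, project number and line cannot be told apart in XEN against iXEN. Of the genes tested, 3415 (20.2%) were called, 1093 (6.47%) higher in XEN and 2322 (13.7%) lower. A total of 300 genes were called in the same direction in both comparisons, 10.9% of the calls of the pluripotent comparison and 8.78% of those of the endoderm comparison, 150 higher and 150 lower. They made up 22.0% of the genes lower in XEN-iPS and 7.24% of those higher. In opposite directions 436 were called (15.8% of the pluripotent calls). With each comparison fitted on its own 4 libraries, 45 genes were called in the same direction and 62 in opposite directions.

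Some genes averaged at least 50 CPM in XEN-iPS or ES and were lower in both comparisons. They included Gbx2 (log2 fold change −3.67 in XEN against iXEN), Id1 (−2.38), Nkx6-2 (−2.13), Rpl29 (−3.78) and the carbonic anhydrase gene Car2 (−2.85). Gbx2 was rare in the endoderm state, at 0.103 and 0.141 CPM in XEN and 2.52 and 0.634 in iXEN. In iXEN 1, 43 cells met the pluripotency rule, and their part in the Gbx2 level was not tested. Higher in both were Hmgn5, an X-linked chromatin protein gene whose call in XEN-iPS was lost without ES 2 (39.7 and 63.04 CPM in XEN-iPS against 18.97 and 15.2 in ES, 140 and 228 in XEN against 58.7 and 49.3 in iXEN), and Tdrd12 (2.11). H19 and Phlda2 went in opposite directions in the pluripotent and the endoderm comparison. H19 was lower in XEN than in iXEN (−3.17) and Phlda2 was higher (2.04, 121 and 216 CPM in XEN against 54.9 and 27.04 in iXEN). The list of MHC class I and interferon genes had 17 of 25 members lower and none higher in XEN, where 11 were higher in XEN-iPS, and of 42 imprinted genes 5 were higher and 16 lower in XEN, against 6.47% and 13.7% of all genes in that comparison.

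Cells collected on day 28 of reprogramming, still in doxycycline with ascorbic acid and an inhibitor of GSK3β, were set beside XEN-iPS cells where they met the pluripotency rule. That comparison uses the same ES libraries, so values are given side by side only. Against ES, 3040 genes (18.1%) were called in day 28 cells, 1757 (10.5%) higher and 1283 (7.64%) lower. H19 stood at 7.41 and 2.65 CPM in the day 28 libraries and Mest at 34.4 and 44.8. Xlr3a stood at 26.6 and 41.1, Rhox5 at 537 and 551, and Dppa3 at 183 and 164. Phlda2 stood at 12.8 and 14.9 and Ddx3y at 0 in both. For Mest, Xlr3a and Dppa3 the day 28 values lay well above the ES values, and for Phlda2 below them. Of the X-linked list 20 members were called higher on day 28, and of the amino acid response 6 were called higher, where 6 were lower in XEN-iPS.

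Differences were uneven over chromosomes. Over genes of at least 20 CPM the median log2 fold change was −0.17, and 63.5% of genes were lower. On chromosome 14 the median was −0.82, with 91.2% of 136 genes lower, and the medians of XEN-iPS 1 and 2 against the mean of ES were −0.55 and −1.01. On chromosome 13 the median was −0.53, with 84.7% of 137 genes lower (−0.26 and −0.83), and on chromosome 1 it was −0.45, with 83.5% of 254 genes lower (−0.63 and −0.28). Chromosome 19 went the other way, at 0.35, with 15.6% of 173 genes lower (0.56 and 0.14), and of its 557 genes tested 118 were called higher and 1 lower, against 12.3% and 4.03% of all genes. Over all such genes the medians of XEN-iPS 1 and 2 were −0.10 and −0.29, and chromosomes 6 (0.47 and −0.26) and 16 (0.29 and −0.23) lay above them in both, whereas chromosome 8 (0.13 and −0.49) lay above in XEN-iPS 1 and below in XEN-iPS 2. In XEN cells chromosome 14 stood at −0.15 and −0.22 against the mean of ES and chromosome 19 at 0.40 and 0.40, with −0.10 and −0.18 over all genes. In the cells that met the pluripotency rule the XEN-iPS values for chromosome 14 were −0.57 and −1.12. Copy number was not measured.

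**Figure D5:**
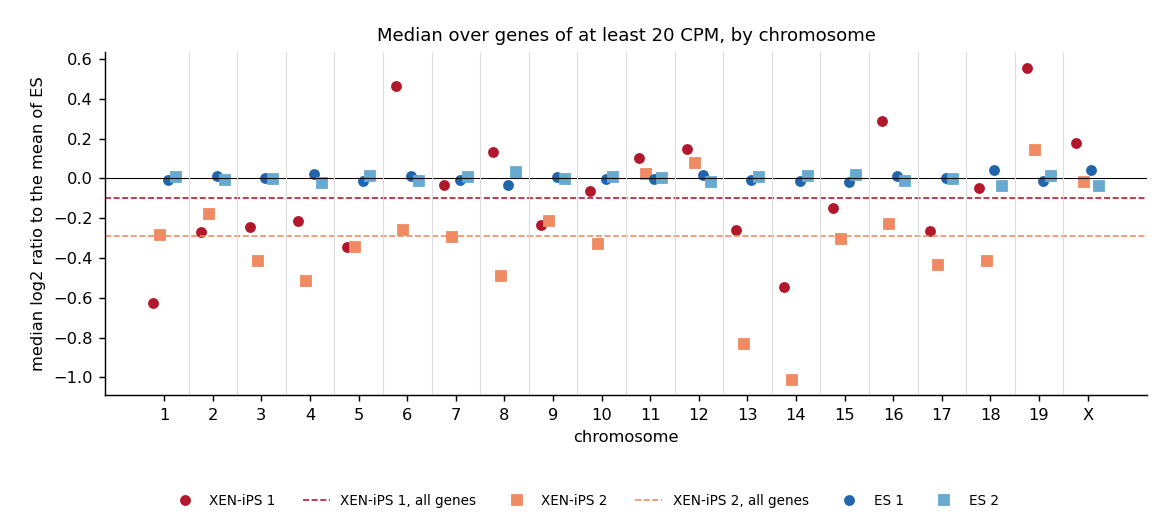
Median log2 ratio to the mean of the ES libraries over genes of at least 20 CPM, by chromosome, in XEN-iPS 1 and 2 (red) and ES 1 and 2 (blue), with dashed lines for the median over all such genes in each XEN-iPS library. Chromosomes 13 and 14 lie below the lines and chromosome 19 above them in both XEN-iPS libraries.

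The genes that differed most between the XEN-iPS duplicates were largely gene copies. In XEN-iPS 1, Rps2-ps6 (310 against 0.734 CPM in XEN-iPS 2), Gm21761 (76.3 against 1.301), Gm8300 (70.5 against 2.803), Rhox5 and the glutathione peroxidase gene Gpx2 (53.8 against 5.76) were the 5 most in excess. In XEN-iPS 2 they were Gm10837 (158 against 0.0410 CPM in XEN-iPS 1), Gm5218 (661 against 0.793), Gm6133 (92.7 against 0.438), the macrophage lysozyme gene Lyz2 (71.9 against 0.137) and Gm9844 (109 against 2.79). Gm10837 was at 0.00922 and 0.00750 CPM in ES, and its call against ES was lost without XEN-iPS 2.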

How the data were processed

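Libraries were made with the 10x Genomics 3′ kit (version 2 chemistry), and the authors processed the reads with SEQC against the mouse genome (mm10; the SEQC version is not given in the sources used here). They deposited, per library, a table of raw UMI counts by cell and gene, with upper-case symbols that were matched to GENCODE vM21 (22038 of 22936). How doublets were treated is not given there, and no doublet caller was run. UMIs of the kept cells were summed per library, giving 52320828 to 138204184 UMIs in the 4 libraries compared. These sums were tested with edgeR (version 4.0.16, R 4.3.3) by its quasi-likelihood test after TMM scaling and filterByExpr, with all 20 libraries in 1 model of 10 conditions (10 residual degrees of freedom). Benjamini-Hochberg adjustment ran over all 16903 genes tested, and calls needed an adjusted p below 0.05 together with a 2-fold change. CPM values are scaled by TMM, and raw CPM are not.

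The study's methods describe the replicates as technical duplicates. The replicate numbers did not pair the libraries: the correlation of same-numbered deviations from the group means was −0.00994 over 4489 genes. Named were the 10 highest and 10 lowest called genes that averaged at least 50 CPM and did not overlap, up to 3 called members per list and direction, the marker genes the study names, Xist and the Y-linked genes, and the 5 genes per direction that differed most between the XEN-iPS duplicates, 105 genes in all. Genes named beyond this were chosen after their values were seen. The comparison, the gene lists and the rules were chosen with earlier results of these data known. Alternatives were DESeq2 (1.42.0), other scaling, filters and cell limits, leaving out each library, a replicate block and the pluripotency rule. Counts were also simulated from 1 mean and 1 spread per gene over all 20 libraries. On them, 74 of 100 genes changed 4-fold were called, and 15 of 100 changed 2-fold had an adjusted p under 0.05. Of 16903 genes, 3 unchanged ones were called. The simulated XEN-iPS duplicates were as alike as other pairs, unlike the real ones, so these rates do not carry over to this comparison. Intervals and limits of a count of 0 (3 counts) cover counting error only. Promoters and motifs are from RefSeq on GRCm38.p6, and a motif was searched on both strands with overlaps allowed. Shares of cells used Python 3.11.15 with numpy 2.4.6 and scipy 1.17.1.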

Additional observations from a re-analysis of the deposited data

Results flagged for a closer look

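In 63 of the 105 named genes the difference between the lines was not the same in the pluripotent and the endoderm state. This was by an interaction term at an adjusted p under 0.05 (edgeR). Of the 63, 16 were called in opposite directions in XEN-iPS against ES and in XEN against iXEN. The XEN files carry the project number of ES and the iXEN files that of XEN-iPS 1. Project number, culture conditions and this interaction therefore cannot be told apart. Many of the 105 genes were named for their values in XEN-iPS against ES, which are 1 part of the interaction, so the counts are a description. Of all 16903 genes 29.0% passed the interaction term, as did 59.8% of the 2754 genes called in XEN-iPS against ES, and 436 genes (2.58% of all, 15.8% of those called) were called in opposite directions. Each value below is the log2 fold change of XEN-iPS against ES minus that of XEN against iXEN, with both in parentheses. Lower in XEN-iPS and higher in XEN were AY036118 at −4.48 (−2.74 and 1.74), Phlda2 at −4.28 (−2.24 and 2.04), Cth at −4.05 (−2.30 and 1.75) and Etv4 at −3.63 (−1.77 and 1.86).

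Higher in XEN-iPS and lower in XEN were Smad6 at 5.05 (1.83 and −3.21), Xist at 5.24 (3.16 and −2.08) and Tfap2c at 10.2 (3.46 and −6.74). The interferon-induced genes Isg15 at 9.61 (6.95 and −2.67) and Ifit1 at 13.6 (8.40 and −5.21) were in this group, as were the fibroblast-expressed Igfbp7 at 11.1 (6.52 and −4.59), Ccl2 at 15.8 (8.08 and −7.74) and Ccl7 at 19.04 (12.3 and −6.76). Hoxb2 at 12.7 (4.45 and −8.30) and Hand2 at 13.3 (5.55 and −7.71) are genes of differentiating cells. The imprinted H19 at 14.99 (11.8 and −3.17) and the X-linked Xlr5a at 16.004 (9.95 and −6.06) closed the list. For genes with 3 or fewer UMIs in ES (H19, Ccl7 and Xlr5a) the fitted values depend on the prior count and are not bounds.

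Cells that the comparison leaves out, and a part of the cells that it keeps, held signals of their own. In XEN-iPS 2, 28.5% of the cells with at least 500 genes were over the collagen limit, against 0.587% and 0% in ES. In XEN-iPS 1, 3.59% of the kept cells had at least 2 Zscan4 UMIs, against 1 cell in ES 1 and 0 in ES 2.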

How the results depend on the processing

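The count of 2754 called genes moved to 508 in a fit of the 4 libraries alone, which has 2 residual degrees of freedom, and ranged from 855 (without ES 2) to 3199 (without XEN-iPS 1) with 1 library left out. It was 2805 with DESeq2, 2774 with RLE scaling, 3031 with no filter, 2685 at 1000 genes per cell, 3200 with no collagen limit and 2611 under 2 collagen UMIs. The replicate block, for a pairing that the labels do not give and the check did not show, left 2688 calls. In the 4-library fit the block gave 1465 and the crossed pairing 1608 calls. RLE scaling moved the median of all genes from 0.08 to 0.15. XEN against iXEN ranged from 1753 to 2806 with 1 library left out, against 3415, and the 300 genes called in both comparisons became 45 with 4-library fits. Of the 105 named genes, the count that kept their side of the threshold was 105 at 1000 genes per cell, 102 with DESeq2, 101 with RLE, 103 with the replicate block and 44 of 102 with the 4 libraries alone. Dkk1 reversed without XEN-iPS 1 (−0.0215, against 3.74 without XEN-iPS 2) and Fosl2 in pluripotent cells without XEN-iPS 2 (−1.002, adjusted p = 0.12). The cause of these changes was not tested.

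Chromosome medians also moved. Chromosome 14 was −0.48 over all genes tested, −0.82 at 20 CPM or more and −0.40 with RLE, and for XEN-iPS 2 alone and XEN-iPS 1 alone it was −0.35 and −0.23. These single-library values are not refits but medians of log2 (CPM + 1) against the mean of ES over all genes tested. The added 1 CPM shrinks the ratios of rare genes, so they are not like for like with −0.48. Chromosome 13 was −0.25, and −0.53, −0.17, −0.20 and −0.0443 in that order. Chromosome 19 was 0.62, and 0.35, 0.70, 0.27 and 0.44. Chromosome 6 was 0.49, and 0.13, 0.56, 0.066 and 0.33. At these depths 74 of 100 simulated 4-fold changes and 15 of 100 2-fold changes were found, with XEN-iPS duplicates simulated as alike as other pairs.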

Other observations

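Other genes were also called in XEN-iPS against ES. Prrc1 stood at 126 and 249 CPM in XEN-iPS against 8.89 and 7.498 in ES (4.52), and the glutamate transporter gene Slc1a3 was lower (11.7 and 16.2 against 49.8 and 54.1, −1.90). The securin gene Pttg1 was lower as well (20.9 and 18.5 against 92.5 and 58.6, −1.94), and it was also lower in XEN than in iXEN (−1.11). The chromatin remodelling gene Arid1a was lower in both comparisons (−1.08 and −1.33), the first of them lost without ES 2. These genes were chosen after their values were seen.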
